A study of Mus musculus with 6 samples.

Results

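Mouse cumulus-oocyte complexes collected 8 h after human chorionic gonadotropin (hCG) were compared with complexes that had received no hCG, gene by gene. The comparison used 4 of the 6 arrays of the series, 2 titled hCG 8h and 2 titled no hCG, and all probe sets that the platform's annotation pairs with 1 gene symbol. These named 18193 genes, of which 13559 were bright enough to be tested, each by 1 probe set. All groups were wild type complexes of immature females primed with equine chorionic gonadotropin (eCG, which drives follicle growth) for 48 h. One group then received nothing, another received hCG for 8 h, and the group of the remaining 2 arrays received hCG for 16 h. Each array was hybridised with labelled cRNA made from about 8 µg of total RNA of pooled complexes. The complexes without hCG were released from ovaries by needle puncture and carry the word expanded in their labels, which is left unexplained here. The labels place the 8 h complexes in the oviduct, so hormone and site of collection changed together. That site is itself in doubt, because ovulation is usually not finished so soon after hCG. No label says that the 2 arrays of a group hold separate animals or collections, so every p-value below measures the spread between these samples, which may be technical.

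The cumulus is the layer of granulosa cells that stays attached to the oocyte. hCG acts like luteinizing hormone: it binds the granulosa cells of the follicle wall, raises cyclic AMP there and induces EGF-like growth factors, and these carry the signal to the cumulus, which has few receptors for the hormone itself. Cumulus cells then lay down a matrix rich in hyaluronan and spread apart, while the oocyte leaves its meiotic arrest. The progesterone receptor, prostaglandins and steroid synthesis are the other well known parts of the ovulatory response.

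Levels are the deposited log2 intensities, and a change is the 8 h mean minus the mean without hCG on that log2 scale, given ± the standard error by limma (n = 2 arrays in each group). Adjusted p-values are limma's with Benjamini-Hochberg adjustment over 27022 probe sets, and a gene is said to rise or fall at an adjusted p under 0.05. The signal over background is unknown, so a change that starts or ends below 5.62, the 40th percentile of all probe sets, has an uncertain size. Levels of different genes come from different probes and are not set against each other. In a pool of whole complexes, fewer cells of a type and less RNA per cell cannot be told apart. Has2, which makes hyaluronan and serves as a check of the labels, was at 5.78 and 5.67 without hCG and 9.01 and 8.92 at 8 h. The prostaglandin synthase gene Ptgs2 was at 5.61 and 5.39 without hCG and 11.69 and 11.80 at 8 h. Zp3, a zona pellucida gene of the oocyte, was at 12.46 and 12.08 without hCG and 9.77 and 9.56 at 8 h, and the oocyte growth factor gene Gdf9 at 13.40 and 13.08 without hCG and 11.31 and 11.34 at 8 h. In each of these 4 genes both 8 h arrays lay on the same side of both arrays without hCG. Array medians lay between 6.14 and 6.27, and Pearson's r between the 2 arrays of a group, across probe sets, was 0.991 without hCG and 0.996 at 8 h.

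Of the 13559 genes, 5069 were called, which is 37.4% of all tested. Upward calls numbered 2292 (16.9%) and downward calls 2777 (20.5%). Counts over the gene lists below are to be read beside these shares. The median change of all tested genes was −0.02, and that of the called genes was 0.96 upward and −0.98 downward, with 0.42 as the smallest size that was called. Downward calls outnumbered upward calls over all sizes, 4-fold changes were nearly even, and the largest changes were mostly upward. At least 2-fold changes were made by 1087 genes upward and 1347 downward, at least 4-fold changes by 348 and 336, at least 8-fold changes by 130 and 37, and at least 16-fold changes by 49 and 5. The 2 arrays of one group lay wholly above or below the other 2 in 9159 genes (67.5% of all tested), so non-overlap alone is common here. Of the called genes 0 had overlapping arrays, so for a called gene non-overlap adds nothing to the call. Calls were scarcer among dim genes. Among the 3390 dimmest genes 5.69% rose and 9.14% fell, against 24.2% and 22.7% among the 3390 brightest. With replicate 2 of the 8 h group left out, 3498 genes were called, of which 1530 rose.

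**Figure D1:**
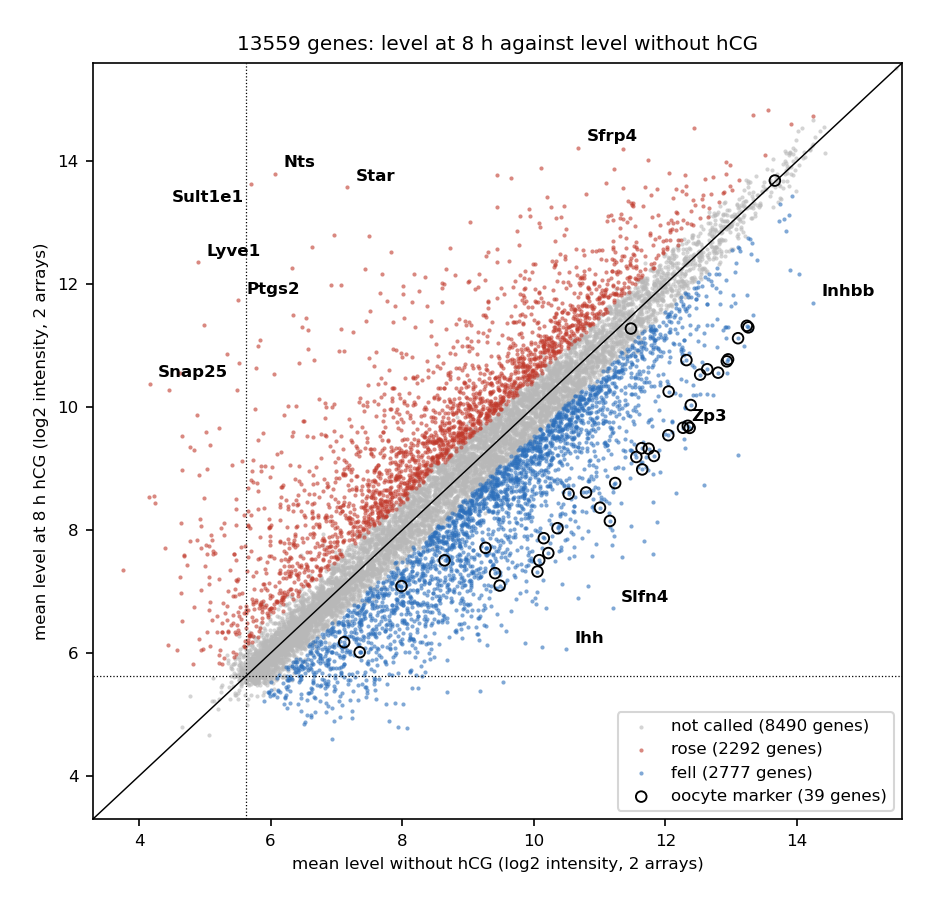
Mean log2 intensity of each of 13559 genes without hCG (horizontal axis, 2 arrays) and at 8 h (vertical axis, 2 arrays), with genes that rose in red, genes that fell in blue, uncalled genes in grey and oocyte markers ringed. The cloud is wider above the diagonal than below it, where 37 of 39 ringed genes lie among those that fell, and dotted lines mark 5.62 on both axes.

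Sult1e1 and Nts had the highest changes of all called genes. Nts, which encodes the peptide neurotensin, was at 5.60 and 6.54 without hCG and 13.82 and 13.79 at 8 h, a change of 7.73 ± 0.26 (adjusted p = 1.79e-07). Sult1e1, which sulfates and so inactivates estrogen, was at 5.55 and 5.87 without hCG and 13.49 and 13.79 at 8 h, a change of 7.93 ± 0.21 (adjusted p = 5.65e-08). In both genes the 8 h arrays lay close together and far above the arrays without hCG. For 11 genes the mean went from under 5.62 to at least 9.63, the 75th percentile of tested probe sets, and no gene made the opposite passage. These 11 were Lyve1, Cxcr4, Ptgs2, Snap25, Ereg, Lepr, Fabp4, Egr3, Asgr1, Il1rl2 and Rpp25. Among them Lepr, the leptin receptor gene, was at 4.41 and 4.49 without hCG and 10.15 and 10.41 at 8 h. Fabp4, a fatty acid carrier, was at 5.49 and 5.18 without hCG and 10.92 and 10.80 at 8 h. Il1rl2, which encodes the receptor of interleukin 36, was at 5.25 and 5.73 without hCG and 10.31 and 10.25 at 8 h. The 3 genes rose by 5.83 ± 0.16, 5.53 ± 0.28 and 4.79 ± 0.18, with adjusted p-values from 5.65e-08 to 1.03e-06. The change of Il1rl2 ran from 0.61 to 5.03 over the processing alternatives, so its size depends on the processing. That of Lepr ran from 4.59 to 5.96 and that of Fabp4 from 5.24 to 5.68.

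Among the falls, Ihh, which encodes the secreted ligand Indian hedgehog, was at 10.55 and 10.44 without hCG and 6.02 and 6.12 at 8 h, a change of −4.43 ± 0.17. Slfn4, a Schlafen family gene, was at 11.33 and 11.07 without hCG and 6.70 and 6.76 at 8 h, a change of −4.47 ± 0.17. Slc18a2, which loads monoamines into vesicles, was at 9.79 and 10.48 without hCG and 6.11 and 6.08 at 8 h. Hsd11b2, which inactivates glucocorticoids, was at 11.74 and 12.03 without hCG and 8.06 and 8.19 at 8 h. Gja4, the connexin gene of the oocyte side of the junctions between oocyte and cumulus, was at 11.02 and 10.74 without hCG and 7.50 and 7.66 at 8 h. The changes of the last 3 genes were −4.04 ± 0.22, −3.75 ± 0.21 and −3.30 ± 0.18. Across these 5 genes adjusted p-values ran from 3.48e-07 to 1.68e-06.

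**Figure D2:**
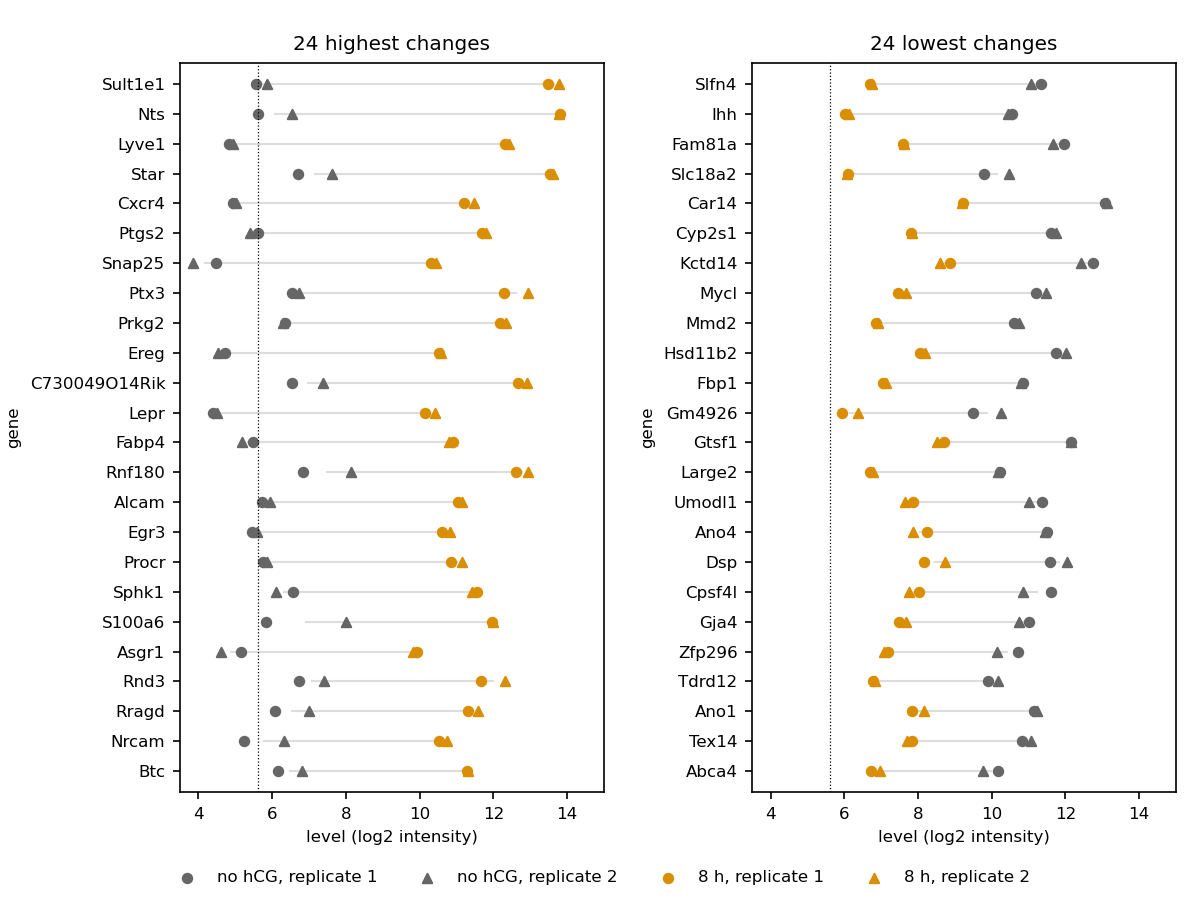
Log2 intensity on each of the 4 arrays for the 24 highest and the 24 lowest changes among called genes whose brighter group reached 9.63, with circles for replicate 1 and triangles for replicate 2. Symbols of the 2 groups do not overlap, which holds for every called gene and for 67.5% of all tested genes. The grey symbols lie apart from each other in S100a6, at 5.83 and 8.01, and Rnf180, at 6.84 and 8.15.

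In a few of the high genes the arrays without hCG disagreed. S100a6, a calcium-binding protein gene, was at 5.83 and 8.01 without hCG and 11.97 and 11.99 at 8 h, so its change of 5.06 ± 0.54 depends on which array without hCG is taken. Ptgfr, the receptor gene for prostaglandin F, was at 5.85 and 7.79 without hCG and 9.95 and 10.18 at 8 h, and Pdgfd, a platelet-derived growth factor gene, at 6.14 and 8.01 without hCG and 9.45 and 9.61 at 8 h. Replicate 2 without hCG was the higher of the pair in 240 of the 348 genes that rose at least 4-fold (69.0%), against 53.7% of all tested genes. Its median lead was 0.21 in those genes and 0.03 in all. Without replicate 1 of that group 1917 genes rose and 2734 fell, and without replicate 2 the numbers were 2523 and 2554. Whether the 2 pools differed in the cells they held was not tested.

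The bases around the start sites of Sult1e1, Nts, Slfn4 and Ihh are shown because these genes head the 2 directions. The 300 bases run from 250 before to 50 after the start site in the RefSeq annotation of GRCm38.p6, of which 8705 tested genes had exactly 1 entry. They lie at chr5:87591562-87591861, minus strand (Sult1e1), chr10:102490369-102490668, minus strand (Nts), chr11:83174936-83175235, plus strand (Slfn4) and chr1:74951623-74951922, minus strand (Ihh). Each is printed 5′ to 3′ on the gene's strand. Capitals mark an SF-1 site (AAGGTCA or its reverse complement), an AP-1 site (TGANTCA) or the core of a cyclic AMP response element (TGACG or its reverse complement), searched on both strands.
Sult1e1: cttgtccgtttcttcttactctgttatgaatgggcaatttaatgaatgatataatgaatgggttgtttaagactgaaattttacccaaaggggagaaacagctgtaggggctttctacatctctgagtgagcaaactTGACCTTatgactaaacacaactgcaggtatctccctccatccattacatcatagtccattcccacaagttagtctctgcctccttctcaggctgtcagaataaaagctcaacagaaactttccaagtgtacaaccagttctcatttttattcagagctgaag
Nts: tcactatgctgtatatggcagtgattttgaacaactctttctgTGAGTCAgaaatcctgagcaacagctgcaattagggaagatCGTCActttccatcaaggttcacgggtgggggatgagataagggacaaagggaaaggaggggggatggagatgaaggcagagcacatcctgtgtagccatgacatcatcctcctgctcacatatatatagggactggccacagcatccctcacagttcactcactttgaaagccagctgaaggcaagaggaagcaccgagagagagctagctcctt
Slfn4: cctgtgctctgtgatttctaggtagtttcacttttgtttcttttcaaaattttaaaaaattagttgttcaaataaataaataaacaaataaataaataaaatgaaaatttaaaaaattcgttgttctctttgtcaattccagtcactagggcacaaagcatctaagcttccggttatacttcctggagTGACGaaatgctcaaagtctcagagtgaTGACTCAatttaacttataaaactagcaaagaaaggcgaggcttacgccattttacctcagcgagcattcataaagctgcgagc
Ihh: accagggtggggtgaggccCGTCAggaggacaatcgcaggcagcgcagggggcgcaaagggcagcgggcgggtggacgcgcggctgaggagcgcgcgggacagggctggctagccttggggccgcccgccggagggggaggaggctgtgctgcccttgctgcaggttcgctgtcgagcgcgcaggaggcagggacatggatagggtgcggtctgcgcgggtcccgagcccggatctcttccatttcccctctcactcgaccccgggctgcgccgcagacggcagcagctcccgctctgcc
In Sult1e1 the SF-1 site starts at −113. In Nts an AP-1 site starts at −207 and a cyclic AMP core at −166. Slfn4, which fell, holds the same pair of motifs, at −34 and −62, and Ihh holds a core at −231. Cxcr4, a high gene picked by the same rule, is not printed and holds none of these motifs. AP-1 letters were in 9.77% of the 215 promoters of genes that rose at least 4-fold, in 7.31% of the 219 that fell as far, in 4.87% of all tested genes and in 7.98% of the whole table. SF-1 letters were in 1.4% of those that rose at least 4-fold and 3.25% of all tested genes. The core was in 28.4% and 31.0%. A match describes the letters only and says nothing of a factor bound there.

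Cyclic AMP is the second messenger of gonadotropins, and phosphodiesterases break it down. Of 50 tested genes of gonadotropin receptors and cyclic AMP handling, 16 rose and 9 fell, with a median change of 0.12. Pde4d, a phosphodiesterase gene, was at 5.98 and 5.80 without hCG and 9.41 and 9.75 at 8 h. Its relative Pde4b was at 5.46 and 6.17 without hCG and 8.49 and 8.20 at 8 h. Crem, whose products repress or activate genes with cyclic AMP elements, was at 5.95 and 6.04 without hCG and 8.89 and 8.85 at 8 h. These 3 genes rose by 3.69 ± 0.17, 2.53 ± 0.23 and 2.87 ± 0.15, with adjusted p-values from 7.42e-07 to 2.76e-05. Prkar1b, a regulatory subunit of protein kinase A, rose by 2.80 ± 0.24, and Prkg2, the cyclic GMP-dependent kinase, by 5.94 ± 0.16. Fshr, the receptor of follicle-stimulating hormone, was at 12.26 and 12.16 without hCG and 11.07 and 10.99 at 8 h and fell by 1.18 ± 0.15. Akap7, an anchoring protein of kinase A, fell by 1.87 ± 0.24. Sik1, a kinase gene that responds quickly to cyclic AMP elsewhere, was at 7.84 and 8.33 without hCG and 8.02 and 8.16 at 8 h and was not called (adjusted p = 0.996). With 8 h replicate 1 omitted 10 of these genes rose and 5 fell, and with 8 h replicate 2 omitted 9 rose.

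RGS proteins shorten signals from G protein-coupled receptors. Of 20 tested genes of RGS proteins, arrestins and receptor kinases, 6 rose and 5 fell. Rgs11 was at 8.97 and 8.82 without hCG and 6.40 and 6.37 at 8 h, Rgs13 at 9.74 and 10.37 without hCG and 7.96 and 7.70 at 8 h and Rgs17 at 8.76 and 8.76 without hCG and 6.77 and 6.91 at 8 h. Their changes were −2.51 ± 0.19, −2.22 ± 0.21 and −1.92 ± 0.15. Grk5, a kinase that desensitises receptors, rose by 1.40 ± 0.18.

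Peptide hormones and their receptors were often called. Of 35 tested peptide genes 15 rose and 8 fell, and of 36 receptors of peptides, lipids and nucleotides 13 rose and 5 fell. Apela, a ligand of the apelin receptor, was at 4.72 and 4.60 without hCG and 9.60 and 9.46 at 8 h. Penk, which encodes enkephalin, was at 7.39 and 7.63 without hCG and 11.67 and 11.48 at 8 h. Nmu, which encodes neuromedin U, was at 7.36 and 7.14 without hCG and 11.37 and 11.06 at 8 h. Their changes were 4.87 ± 0.15, 4.06 ± 0.16 and 3.97 ± 0.17, with adjusted p-values from 1.06e-07 to 5.71e-07. At 16 h Apela was at 5.16 and 5.11, Penk at 7.52 and 7.40 and Nmu at 8.12 and 7.97, far below the 8 h arrays. Edn2, which encodes endothelin 2 and acts in follicle rupture, was at 6.07 and 5.39 without hCG and 9.06 and 9.23 at 8 h and rose by 3.41 ± 0.27. Adcyap1, the gene of the peptide PACAP, rose by 2.19 ± 0.21 and its receptor gene Adcyap1r1 by 0.95 ± 0.18. Ednrb, an endothelin receptor gene, was at 8.56 and 9.33 without hCG and 6.45 and 6.54 at 8 h and fell by 2.45 ± 0.24. Npr2, the receptor of C-type natriuretic peptide whose cyclic GMP holds the oocyte in arrest, was at 12.43 and 12.14 without hCG and 9.89 and 9.62 at 8 h and fell by 2.53 ± 0.18 (adjusted p = 5.75e-06). Ramp1, a partner of the calcitonin receptor-like receptor, was at 8.17 and 8.13 without hCG and 11.75 and 11.67 at 8 h and rose by 3.56 ± 0.16.

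Scg2 and Chgb, which encode granins of secretory granules, and Hhip, which encodes a protein that binds and blocks hedgehog ligands, had a full cyclic AMP response element (TGACGTCA, its own reverse complement) near the start site and rose. They are shown as the 3 largest of the 13 genes that rose at least 2-fold and had these letters. The 150 bases from 100 before to 50 after the start site are printed as above, with the element in capitals, from chr1:79439977-79440126, minus strand (Scg2), chr2:132781542-132781691, plus strand (Chgb) and chr8:80057959-80058108, minus strand (Hhip).
Scg2: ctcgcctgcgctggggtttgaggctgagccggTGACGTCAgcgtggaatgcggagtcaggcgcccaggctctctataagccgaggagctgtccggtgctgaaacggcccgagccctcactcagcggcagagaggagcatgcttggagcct
Chgb: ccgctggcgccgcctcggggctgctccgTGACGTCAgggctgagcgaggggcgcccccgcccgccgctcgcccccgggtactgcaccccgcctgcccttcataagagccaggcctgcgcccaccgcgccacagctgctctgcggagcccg
Hhip: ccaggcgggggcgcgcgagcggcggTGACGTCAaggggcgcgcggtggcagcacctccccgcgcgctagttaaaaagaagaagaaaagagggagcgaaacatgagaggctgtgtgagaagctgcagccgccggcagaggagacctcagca
The element starts at −68 in Scg2, −72 in Chgb and −75 in Hhip. Scg2 was at 4.99 and 4.90 without hCG and 8.37 and 7.78 at 8 h, Chgb at 5.77 and 5.18 without hCG and 8.58 and 8.43 at 8 h and Hhip at 5.88 and 5.74 without hCG and 8.72 and 8.57 at 8 h. The 3 genes rose by 3.13 ± 0.20, 3.03 ± 0.22 and 2.83 ± 0.19, each from a mean that was close to or under 5.62, so these sizes are uncertain. Over all genes the element was in 2.01% of 646 promoters of genes that rose at least 2-fold, in 2.62% of 840 that fell as far, in 3.1% of all tested genes and in 1.85% of the whole table.

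Among transcription factors, 4 classical immediate early genes were not called at 8 h, while other members of the same families were. Fos was at 14.07 and 14.16 without hCG and 14.01 and 14.13 at 8 h. Egr1 was at 13.82 and 13.85 without hCG and 13.78 and 13.93 at 8 h, and Jun at 12.68 and 12.83 without hCG and 12.78 and 13.01 at 8 h. Nr4a1 was at 11.74 and 11.31 without hCG and 11.35 and 11.32 at 8 h. The arrays of the 2 groups overlapped in each of the 4 genes, and their adjusted p-values ran from 0.526 to 0.934. Fosl1, by contrast, was at 5.68 and 5.63 without hCG and 8.71 and 8.66 at 8 h and rose by 3.03 ± 0.18. Egr3 was at 5.46 and 5.59 without hCG and 10.61 and 10.84 at 8 h and rose by 5.20 ± 0.19. Its change ran from 2.56 to 5.31 over the 16 processing alternatives. Over the families, 16 of 37 tested bZIP factors rose and 4 fell, and 14 of 36 zinc finger factors of the Egr, Klf and Zbtb families rose and 3 fell. The falls in the zinc finger list numbered 6 with untreated replicate 1 omitted and 1 with untreated replicate 2 omitted. The falls in the bZIP list numbered 2 with untreated replicate 1 omitted, 2 with 8 h replicate 1 omitted and 1 with 8 h replicate 2 omitted.

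Cebpb, a bZIP factor needed for luteinization, was at 10.77 and 10.51 without hCG and 12.50 and 12.63 at 8 h and rose by 1.93 ± 0.16. Creb3, a factor of the secretory pathway, was at 10.22 and 10.39 without hCG and 12.19 and 12.35 at 8 h and rose by 1.97 ± 0.16. Zbtb16, which encodes PLZF, was at 5.72 and 5.9996 without hCG and 9.06 and 9.02 at 8 h and rose by 3.18 ± 0.16, and at 16 h it was at 5.76 and 5.72. Runx1 was at 7.84 and 7.88 without hCG and 11.45 and 11.31 at 8 h and rose by 3.52 ± 0.23. Etv5, an Ets factor that acts downstream of ERK, was at 4.44 and 5.11 without hCG and 7.70 and 7.96 at 8 h and rose by 3.06 ± 0.22 from a mean under 5.62. Adjusted p-values of these 5 genes ran from 1.03e-06 to 1.71e-05.

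All tested genes moved in both directions, 16.9% up and 20.5% down, and so did nuclear receptors, 20% up and 30% down. Of 40 tested, 8 rose and 12 fell, and with 8 h replicate 1 omitted 5 rose and 7 fell. With 8 h replicate 2 omitted 5 rose. Pgr, the progesterone receptor gene, was at 4.98 and 5.21 without hCG and 8.13 and 7.71 at 8 h and rose by 2.83 ± 0.19, and at 16 h it was at 5.45 and 5.60. Nr1h4, the bile acid receptor gene, was at 4.83 and 4.98 without hCG and 9.001 and 8.79 at 8 h and rose by 3.99 ± 0.19. Rora was at 7.53 and 8.07 without hCG and 10.56 and 10.65 at 8 h and rose by 2.81 ± 0.20. Both estrogen receptor genes fell, Esr1 from 9.84 and 10.24 to 7.76 and 8.22 and Esr2 from 9.47 and 9.55 to 7.79 and 7.89. Their changes were −2.05 ± 0.21 and −1.67 ± 0.16, with adjusted p-values from 3.32e-05 to 5.03e-05.

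Foxl2, which keeps granulosa cells in their fate, was at 12.10 and 12.52 without hCG and 10.24 and 10.61 at 8 h. The forkhead gene Foxo1 was at 12.78 and 13.07 without hCG and 11.10 and 11.16 at 8 h and the zinc finger gene Gata4 at 10.25 and 10.18 without hCG and 9.21 and 9.24 at 8 h. The 3 changes were −1.89 ± 0.20, −1.80 ± 0.16 and −0.99 ± 0.16, with adjusted p-values from 2.58e-05 to 0.0012. Lhx8, a homeobox gene of oocytes, fell by 2.57 ± 0.18, and Meis2 fell by 2.13 ± 0.16. Of 47 tested Runx, Gata, Fox, Sox, Ets and homeobox factors, the list that holds these genes, 13 rose and 12 fell, with a median change of 0.06. The rises numbered 7 with untreated replicate 1 omitted, 7 with 8 h replicate 1 omitted and 6 with 8 h replicate 2 omitted. Of 38 bHLH and Id factors 13 rose and 7 fell, with 8 rises with 8 h replicate 2 omitted. Mycn fell by 2.48 ± 0.19, Id3 fell by 1.07 ± 0.19, and Id2 rose by 1.45 ± 0.21.

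Cytokine genes rose more often than they fell, with 23 of 68 tested interleukins, chemokines and their receptors up and 6 down. Il6, which acts on cumulus cells during expansion, was at 4.70 and 4.57 without hCG and 8.05 and 8.17 at 8 h and rose by 3.48 ± 0.21. Il33 was at 4.49 and 4.31 without hCG and 7.60 and 7.82 at 8 h and rose by 3.31 ± 0.17. Cxcr4, the receptor of the chemokine Cxcl12, was at 4.94 and 5.03 without hCG and 11.20 and 11.48 at 8 h and rose by 6.35 ± 0.17. Cxcl12 itself was at 7.998 and 7.66 without hCG and 7.64 and 7.57 at 8 h and was not called (adjusted p = 0.401). The means without hCG of Il6, Il33 and Cxcr4 were under 5.62, so their sizes are uncertain. Ccl2, an attractant of monocytes, stayed near the dim limit at 5.77 and 5.43 without hCG and 5.59 and 5.68 at 8 h (adjusted p = 0.913). Markers of leukocytes are given further on, since such cells also make these products.

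The activin and inhibin genes parted ways. Inhba, the activin A subunit gene, was at 14.12 and 13.95 without hCG and 12.10 and 12.24 at 8 h. Inhbb was at 14.18 and 14.30 without hCG and 11.42 and 11.98 at 8 h. Inha, the alpha subunit of inhibin, was at 14.27 and 14.28 without hCG and 14.22 and 14.58 at 8 h, with overlapping arrays. Inhba fell by 1.86 ± 0.21 and Inhbb fell by 2.54 ± 0.20, with adjusted p-values from 1.28e-05 to 9.43e-05, and Inha was not called (adjusted p = 0.641). Fst, which binds activin, was at 13.03 and 13.27 without hCG and 12.75 and 13.12 at 8 h and was not called (adjusted p = 0.423). Bmper, an extracellular modulator of BMPs, was at 7.39 and 8.64 without hCG and 11.82 and 12.14 at 8 h and rose by 3.96 ± 0.33. Tgfb1 rose by 2.53 ± 0.22 and the receptor gene Tgfbr2 by 2.17 ± 0.18, while Tgfb2 fell by 2.22 ± 0.22 and Bmp5 fell by 2.20 ± 0.19. Over the whole pathway 11 of 55 tested genes rose (20%) and 15 fell (27.3%), against 16.9% and 20.5% of all tested genes.

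In the Wnt pathway 9 of 51 tested genes rose (17.6%) and 8 fell (15.7%), near the 16.9% and 20.5% of all tested genes. Sfrp4, a secreted decoy of Wnts, was at 10.08 and 11.28 without hCG and 14.15 and 14.29 at 8 h and rose by 3.54 ± 0.31. Fzd1, a Wnt receptor gene, was at 7.72 and 7.92 without hCG and 12.47 and 12.59 at 8 h and rose by 4.71 ± 0.16. Axin2, a feedback target of beta-catenin, was at 9.98 and 9.69 without hCG and 8.52 and 8.17 at 8 h and fell by 1.49 ± 0.18, and Rspo2, which enhances Wnt signals, fell by 2.18 ± 0.15. Adjusted p-values of these 4 genes ran from 1.79e-07 to 1.70e-04.

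In the hedgehog pathway 2 ligands fell and a blocker of the ligands rose. Dhh, desert hedgehog, was at 11.08 and 11.34 without hCG and 8.62 and 8.77 at 8 h and fell by 2.52 ± 0.16 (adjusted p = 3.79e-06), beside the fall of Ihh and the rise of Hhip given above. Gli2, a factor that carries the signal, fell by 1.50 ± 0.17. The receptor gene Ptch1, which the pathway itself induces, was at 8.78 and 9.16 without hCG and 8.82 and 9.07 at 8 h and was not called (adjusted p = 0.945). Notch and hedgehog genes together had 9 rises and 10 falls among 33 tested. The rises numbered 5 with 8 h replicate 2 omitted and the falls 6 with 8 h replicate 1 omitted.

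Among growth factors and guidance genes, Met, the receptor of hepatocyte growth factor, was at 4.39 and 4.93 without hCG and 8.95 and 9.02 at 8 h and rose by 4.32 ± 0.20 from a mean under 5.62. Angptl4 was at 9.73 and 9.82 without hCG and 12.68 and 12.58 at 8 h and rose by 2.86 ± 0.15. Efnb2, an ephrin ligand of cell contact, was at 7.77 and 8.19 without hCG and 10.79 and 10.99 at 8 h and rose by 2.91 ± 0.21. Sema3d and Sema3e, secreted semaphorins, rose by 2.61 ± 0.19 and 2.46 ± 0.17, and Sema7a and Sema3g fell, with changes of −2.43 ± 0.18 and −2.35 ± 0.16. Gas6 fell by 2.55 ± 0.16. Of 40 tested factors of the FGF, PDGF, VEGF and angiopoietin families 9 rose and 11 fell. The falls numbered 6 and 5 with 8 h replicate 1 omitted and with 8 h replicate 2 omitted, and 7 with either of the 16 h arrays left out. Of 58 axon guidance genes 12 rose (20.7%) and 15 fell (25.9%), against 16.9% and 20.5% of all tested genes. In the insulin pathway Igf1 was at 11.36 and 11.70 without hCG and 9.65 and 9.82 at 8 h and fell by 1.79 ± 0.17, while the binding protein genes Igfbp4 and Igfbp3 rose by 1.91 ± 0.17 and 2.73 ± 0.21. Igf1r, the receptor gene, was not called (change −0.27 ± 0.21, adjusted p = 0.374).

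Genes of adhesion had the highest share of rises among the 47 process lists described here. Of 48 tested integrins and adhesion molecules of the immunoglobulin type 25 rose (52.1%, against 16.9% of all tested genes) and 6 fell, with a median change of 0.57 against −0.02. Alcam was at 5.74 and 5.94 without hCG and 11.05 and 11.14 at 8 h and rose by 5.26 ± 0.16. Nrcam, a neuronal adhesion gene, was at 5.23 and 6.33 without hCG and 10.54 and 10.75 at 8 h and rose by 4.86 ± 0.32. Cd34, a sialomucin, was at 7.11 and 7.77 without hCG and 12.21 and 12.30 at 8 h and rose by 4.81 ± 0.23, and at 16 h it was at 7.70 and 7.33. Itga6, a laminin receptor gene, fell by 1.78 ± 0.19, while its partner gene Itgb1 rose by 1.32 ± 0.20. With 8 h replicate 1 omitted 3 of these genes fell. Lyve1 and Cd34 are also endothelial markers, which are counted below.

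Several genes of the actin cytoskeleton were among those named by rule, and their own values are given without a count over a list. Tmsb4x, which encodes the actin-binding peptide thymosin beta 4, was at 9.15 and 10.17 without hCG and 13.72 and 13.74 at 8 h and rose by 4.07 ± 0.28. Tagln2, an actin bundler, was at 8.69 and 8.77 without hCG and 12.51 and 12.68 at 8 h and rose by 3.86 ± 0.15. Rnd3, a GTPase that loosens stress fibres, was at 6.73 and 7.42 without hCG and 11.66 and 12.31 at 8 h and rose by 4.91 ± 0.27. Vcl, which encodes vinculin, was at 10.27 and 10.64 without hCG and 12.76 and 12.86 at 8 h and rose by 2.35 ± 0.17. Adjusted p-values of these 4 genes ran from 3.58e-07 to 8.07e-06. Myo10, the myosin that carries cargo along filopodia, was at 9.76 and 10.17 without hCG and 8.01 and 8.63 at 8 h and fell by 1.64 ± 0.23. Fscn1, which bundles filopodial actin, was at 12.34 and 12.65 without hCG and 12.37 and 12.54 at 8 h and was not called (adjusted p = 0.902). Cumulus cells reach the oocyte by filopodia.

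**Figure D3:**
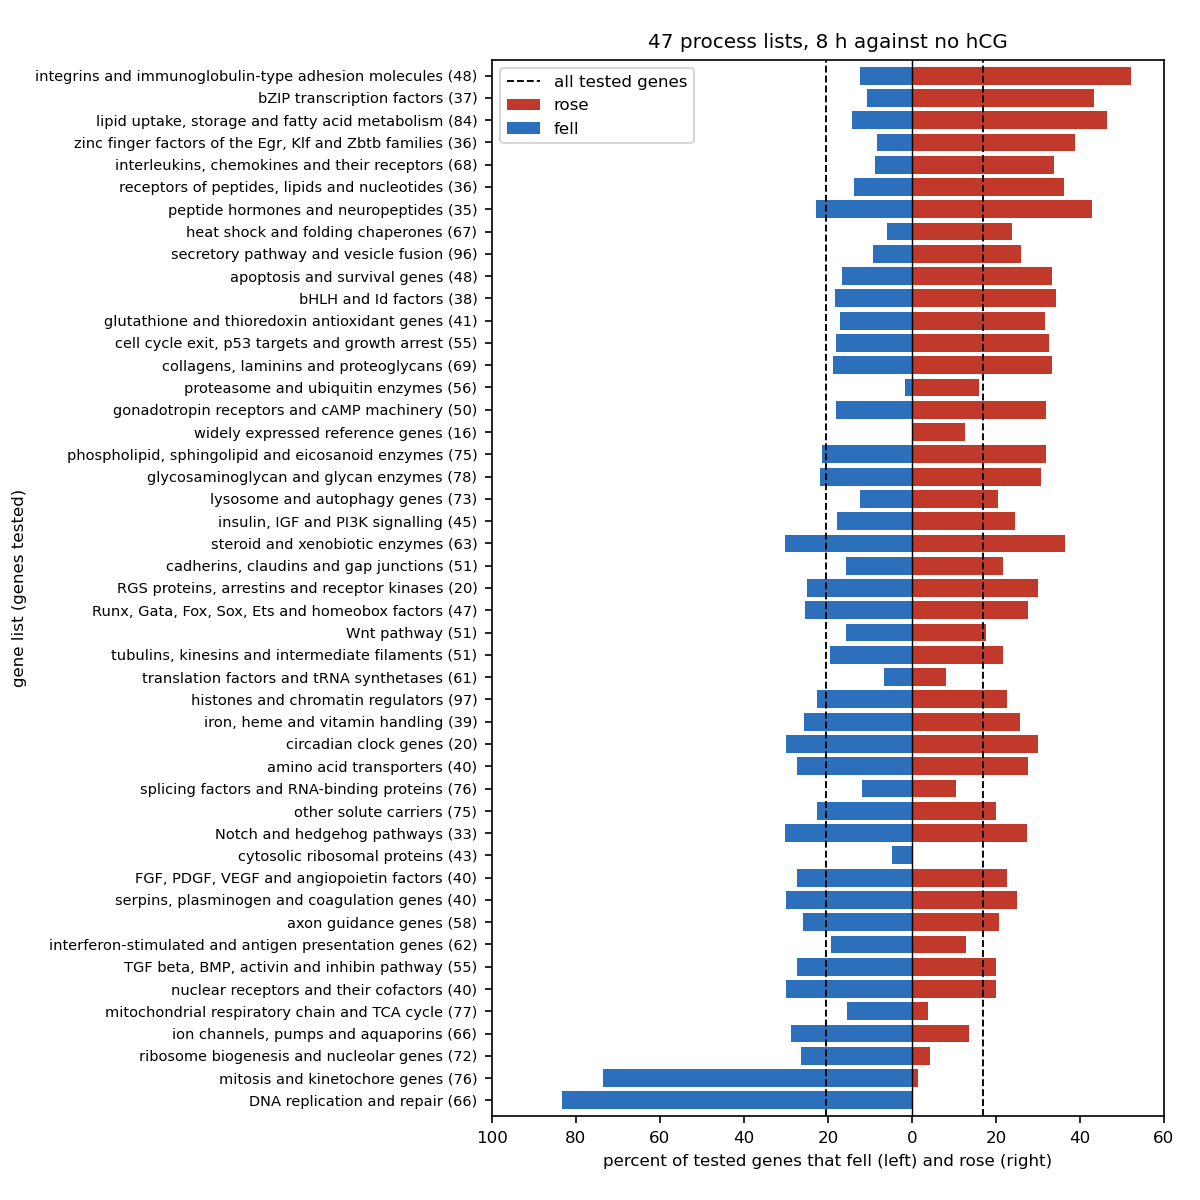
Percent of tested genes that fell (left, blue) and rose (right, red) at 8 h in each of 47 process lists, ordered by the percent that rose minus the percent that fell, with the number tested in parentheses. Dashed lines mark all tested genes, 20.5% down and 16.9% up, and the adhesion list reaches 52.1% up while the DNA replication list reaches 83.3% down with no rise.

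Matrix and junction genes were more mixed. Vcan, which encodes the proteoglycan versican, was at 11.57 and 11.89 without hCG and 13.86 and 14.18 at 8 h and rose by 2.29 ± 0.18. The basement membrane collagen genes Col4a1 and Col4a2 were at 9.20 and 10.05 without hCG and 12.08 and 12.67 at 8 h and at 7.25 and 8.11 without hCG and 10.29 and 10.67 at 8 h. They rose by 2.75 ± 0.29 and 2.80 ± 0.26. Lox, which crosslinks collagen, was at 8.65 and 8.56 without hCG and 11.92 and 12.12 at 8 h and rose by 3.41 ± 0.15. Of 69 tested collagens, laminins and proteoglycans 23 rose and 13 fell, with 5 falls with 8 h replicate 1 omitted. Cldn1, a tight junction gene, was at 4.63 and 4.92 without hCG and 9.36 and 9.36 at 8 h and rose by 4.58 ± 0.16 from a mean under 5.62, and at 16 h it was at 4.80 and 4.67. Cdh1, which encodes E-cadherin, was at 7.19 and 7.66 without hCG and 5.78 and 5.50 at 8 h and fell by 1.79 ± 0.20. Gja1, the connexin gene of granulosa cells, was at 13.66 and 13.85 without hCG and 13.22 and 13.57 at 8 h and was not called by this probe set (adjusted p = 0.152), although 4 of its 6 probe sets fell. Of 51 cadherins, claudins and gap junction genes 11 rose (21.6%) and 8 fell (15.7%), against 16.9% and 20.5% of all tested genes.

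Among genes of clotting, plasminogen and serpins 10 of 40 tested rose (25%) and 12 fell (30%), with a median change of 0.04. Procr, the protein C receptor gene, was at 5.75 and 5.87 without hCG and 10.86 and 11.15 at 8 h and rose by 5.19 ± 0.16. F3, which encodes tissue factor, was at 6.24 and 6.17 without hCG and 9.81 and 9.93 at 8 h and rose by 3.67 ± 0.15. S100a10 and Anxa2, whose products together hold plasminogen at the cell surface, were at 10.40 and 10.53 without hCG and 13.21 and 13.33 at 8 h and at 11.25 and 11.46 without hCG and 13.52 and 13.60 at 8 h. They rose by 2.81 ± 0.16 and 2.20 ± 0.16. Plat, tissue plasminogen activator, was at 12.89 and 13.03 without hCG and 11.15 and 11.45 at 8 h and fell by 1.66 ± 0.16. Itih5, a relative of the heavy chains that bind hyaluronan, was at 10.45 and 10.79 without hCG and 7.70 and 7.76 at 8 h and fell by 2.89 ± 0.19. Vim, which encodes the intermediate filament vimentin, was at 11.18 and 11.25 without hCG and 13.86 and 13.88 at 8 h and rose by 2.66 ± 0.15. Over tubulins, kinesins and intermediate filaments 11 of 51 rose and 10 fell, with 6 falls with 8 h replicate 1 omitted.

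Genes for the uptake, storage and use of lipids rose widely, 39 of 84 tested, with 12 falls and a median change of 0.32. Fabp7, a fatty acid carrier, was at 4.23 and 4.21 without hCG and 8.28 and 8.83 at 8 h and rose by 4.33 ± 0.24 from a mean under 5.62. Scd1, which makes monounsaturated fatty acids, was at 9.28 and 9.31 without hCG and 12.45 and 12.60 at 8 h and rose by 3.22 ± 0.15. Acsl4, which activates arachidonic acid, was at 8.62 and 9.59 without hCG and 11.68 and 12.16 at 8 h and rose by 2.81 ± 0.29. Scarb1, the receptor of high-density lipoprotein, was at 12.21 and 12.43 without hCG and 13.35 and 13.60 at 8 h and rose by 1.15 ± 0.17. Stard5, a sterol carrier, rose by 2.56 ± 0.15 and was at 8.08 and 8.05 at 16 h. Adjusted p-values of these 5 genes ran from 7.73e-07 to 4.91e-04. The falls numbered 6 with 8 h replicate 1 omitted and 6 with 8 h replicate 2 omitted.

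Enzymes of phospholipids and eicosanoids had 24 rises and 16 falls among 75 tested. Sphk1, which makes sphingosine 1-phosphate, was at 6.56 and 6.11 without hCG and 11.57 and 11.43 at 8 h and rose by 5.16 ± 0.18. Its change ran from 1.66 to 5.39 over the 16 processing alternatives. Pcyt1a, a control point of phosphatidylcholine synthesis, was at 8.43 and 8.76 without hCG and 11.66 and 11.77 at 8 h and rose by 3.11 ± 0.17. Ptges, which converts the product of Ptgs2 into prostaglandin E2, was at 9.70 and 9.52 without hCG and 7.41 and 7.36 at 8 h and fell by 2.22 ± 0.16, against the rise of Ptgs2. Slco2a1, the carrier that clears prostaglandins, was at 7.39 and 7.99 without hCG and 12.06 and 12.26 at 8 h and rose by 4.47 ± 0.21. Ptger4, a receptor gene for prostaglandin E2, was at 6.34 and 6.62 without hCG and 7.88 and 7.87 at 8 h and rose by 1.39 ± 0.16. Among glycan enzymes 24 of 78 rose and 17 fell, with 11 falls with 8 h replicate 1 omitted. Ugdh, which makes a precursor of hyaluronan, rose by 1.25 ± 0.16, and Chst15, a sulfotransferase of chondroitin sulfate, by 3.98 ± 0.20.

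Steroid and xenobiotic enzymes changed often in both directions, 23 up and 19 down of 63 tested. Star, which delivers cholesterol to mitochondria, was at 6.71 and 7.62 without hCG and 13.53 and 13.63 at 8 h and rose by 6.41 ± 0.26. Cyp11a1, which makes pregnenolone, was at 11.40 and 11.99 without hCG and 13.48 and 13.68 at 8 h and rose by 1.89 ± 0.21. Its change ran from 0.76 to 2.19 over the 16 processing alternatives. Fdx1, which passes electrons to the Cyp11a1 enzyme, was at 12.32 and 12.57 without hCG and 14.38 and 14.72 at 8 h and rose by 2.11 ± 0.18. Hsd17b1, which makes estradiol from estrone, was at 13.84 and 13.96 without hCG and 12.16 and 12.30 at 8 h and fell by 1.67 ± 0.16. Akr1b8, an aldo-keto reductase gene, rose by 3.58 ± 0.18. Gsta2, a glutathione transferase gene, was at 7.46 and 8.08 without hCG and 11.76 and 11.68 at 8 h and rose by 3.95 ± 0.21, and at 16 h it was at 6.37 and 6.29, below the level without hCG. Gclc, the limiting enzyme of glutathione synthesis, was at 10.02 and 10.13 without hCG and 11.94 and 11.77 at 8 h and rose by 1.78 ± 0.15, and Srxn1, sulfiredoxin, rose by 2.61 ± 0.23. The metallothionein genes Mt2 and Mt1 rose by 3.79 ± 0.17 and 1.77 ± 0.21. Over the antioxidant list 13 of 41 genes rose and 7 fell, and Txnrd1 was not called (change −0.11 ± 0.17, adjusted p = 0.689).

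Amino acid transporters had equal numbers of rises and falls, 11 each of 40 tested. Slc7a8, a carrier of large neutral amino acids, was at 7.74 and 7.59 without hCG and 11.78 and 11.94 at 8 h and rose by 4.19 ± 0.20. Slc38a3, which granulosa cells use to feed amino acids to the oocyte, was at 9.72 and 9.89 without hCG and 7.39 and 7.52 at 8 h and fell by 2.35 ± 0.17. Slc38a5, a relative, was at 13.20 and 13.20 without hCG and 10.90 and 11.10 at 8 h and fell by 2.20 ± 0.15. Slc7a11, which brings in cystine, rose by 1.87 ± 0.17. Adjusted p-values of the 4 ran from 7.42e-07 to 3.00e-05. Of 75 other solute carriers 15 rose (20%) and 17 fell (22.7%), near the 16.9% and 20.5% of all tested genes. Slc2a1, a glucose carrier gene, was not called (change 0.34 ± 0.19, adjusted p = 0.207).

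Ion channels and pumps fell more often than they rose, 19 against 9 of 66 tested (28.8% and 13.6%). All tested genes also fell more often than they rose, 20.5% against 16.9%, and the list's median change was −0.03 against −0.02. Aqp8, a water channel of granulosa cells, was at 8.61 and 8.76 without hCG and 5.88 and 5.90 at 8 h and fell by 2.80 ± 0.15. Ano1, a chloride channel gated by calcium, was at 11.16 and 11.24 without hCG and 7.84 and 8.16 at 8 h and fell by 3.20 ± 0.17. Kcnk1, a potassium channel gene, was at 10.62 and 11.14 without hCG and 8.29 and 8.45 at 8 h and fell by 2.51 ± 0.23. Kcnmb4, a subunit of the large-conductance potassium channel, was at 6.44 and 6.85 without hCG and 9.44 and 9.60 at 8 h and rose by 2.88 ± 0.18. Piezo2, a channel that opens on stretch, rose by 2.69 ± 0.23. Among genes of iron, heme and vitamins 10 rose and 10 fell of 39, and both numbers were 6 with 8 h replicate 2 omitted. Scara5, a ferritin receptor gene, was at 9.14 and 9.19 without hCG and 12.13 and 12.20 at 8 h and rose by 3.001 ± 0.15, and at 16 h it was at 7.31 and 7.41.

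Of 43 tested ribosomal proteins of the cytosol 0 rose and 2 fell, with a median change of −0.03. The falls numbered 0 with 8 h replicate 2 omitted and 1 with untreated replicate 1 omitted. Of 77 genes of the respiratory chain and the tricarboxylic acid cycle 3 rose and 12 fell, with a median of −0.05. The falls numbered 6 with 8 h replicate 1 omitted and 5 with 8 h replicate 2 omitted. The rises there numbered 1 with either 8 h replicate 1 or untreated replicate 1 omitted and 0 with 8 h replicate 2 omitted. Cox4i1, a subunit of cytochrome oxidase, was at 13.48 and 13.55 without hCG and 13.55 and 13.56 at 8 h. Rpl13a, a ribosomal protein gene, was at 13.61 and 13.59 without hCG and 13.32 and 13.55 at 8 h. Neither was called (adjusted p = 0.881 and 0.489). Suclg2, of the cycle's succinyl-CoA step, fell by 0.996 ± 0.19. Of 61 translation factors and tRNA synthetases 5 rose and 4 fell. The rises numbered 3 with untreated replicate 1 omitted and 2 with either 8 h replicate omitted. The largest falls there were in enzymes of serine and folate metabolism kept on that list, Mthfd1 (−1.32 ± 0.15) and Shmt2 (−1.21 ± 0.17).

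Ribosome biogenesis genes had 19 falls (26.4%, against 20.5% of all tested genes) and 3 rises among 72 tested, with a median of −0.17. Bms1, a factor of small subunit assembly, was at 13.23 and 13.37 without hCG and 12.46 and 12.53 at 8 h and fell by 0.81 ± 0.15, and Polr1a, the large subunit of RNA polymerase I, fell by 0.80 ± 0.16. Fbl, which encodes fibrillarin, was at 12.35 and 12.02 without hCG and 12.08 and 12.03 at 8 h and was not called (adjusted p = 0.607). The falls numbered 12 with untreated replicate 1 omitted and 6 with either 8 h replicate omitted. The rises numbered 0 with untreated replicate 1 or 8 h replicate 2 omitted, 1 with 8 h replicate 1 or either 16 h array omitted and 6 with untreated replicate 2 omitted.

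Chaperone and secretory genes rose more often than they fell. Of 67 tested chaperones 16 rose and 4 fell. The falls numbered 1 with untreated replicate 2 omitted, 1 with 8 h replicate 1 omitted and 0 with 8 h replicate 2 omitted. Hspa1a, which encodes the inducible heat shock protein 70, was at 9.20 and 8.45 without hCG and 11.80 and 10.90 at 8 h and rose by 2.53 ± 0.31. Hspb1, a small heat shock protein gene, was at 8.70 and 8.53 without hCG and 11.25 and 10.18 at 8 h and rose by 2.10 ± 0.29. The 8 h arrays of these 2 genes differed from each other by more than those of most genes, and both were above the arrays without hCG. Hspa5, the chaperone of the endoplasmic reticulum, was at 13.78 and 13.86 without hCG and 13.87 and 14.15 at 8 h and was not called (adjusted p = 0.43). Of 96 genes of the secretory pathway 25 rose and 9 fell, and the rises numbered 13 with 8 h replicate 2 omitted. Snap25, a vesicle fusion protein of neurons and endocrine cells, was at 4.46 and 3.87 without hCG and 10.32 and 10.45 at 8 h and rose by 6.22 ± 0.35. Syt7, a calcium sensor of exocytosis, was at 11.59 and 11.70 without hCG and 9.03 and 9.18 at 8 h and fell by 2.54 ± 0.18, and Sytl4 fell by 2.42 ± 0.18.

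Of 56 proteasome and ubiquitin genes 9 rose and 1 fell. The rises numbered 5 with untreated replicate 1 omitted, 5 with 8 h replicate 1 omitted and 1 with 8 h replicate 2 omitted. The fall was that of Psmb9, a subunit of the immunoproteasome, at 9.37 and 9.25 without hCG and 7.23 and 6.97 at 8 h (change −2.21 ± 0.16). Of 73 lysosome and autophagy genes 15 rose and 9 fell. Psap, the saposin precursor gene, was at 11.60 and 11.42 without hCG and 13.18 and 13.38 at 8 h and rose by 1.77 ± 0.16. Ctsc and Lgmn, lysosomal proteases, rose by 1.71 ± 0.15 and 1.73 ± 0.16, and Naglu fell by 1.45 ± 0.16. Of 48 apoptosis and survival genes 16 rose and 8 fell, with 9 rises with 8 h replicate 1 omitted and 5 falls with 8 h replicate 2 omitted. Apaf1, which forms the apoptosome, rose by 1.45 ± 0.16, and Birc3, an inhibitor of apoptosis, fell by 1.78 ± 0.15. Bcl2 was not called (change 0.16 ± 0.16, adjusted p = 0.526). Among interferon-stimulated and antigen presentation genes 8 of 62 rose (12.9%) and 12 fell (19.4%), close to all tested genes (16.9% and 20.5%). Irf1 (−1.27 ± 0.17) and Bst2 (−1.82 ± 0.19) fell, while the highest change of the list was 2.04. At least 2-fold changes were made by 4 members upward and 6 downward. Of 76 splicing factors and RNA-binding proteins 8 rose and 9 fell, among them Cpeb1, which controls stored mRNAs of the oocyte, at 10.72 and 10.51 without hCG and 7.64 and 7.53 at 8 h (change −3.03 ± 0.16).

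DNA replication genes fell almost as a body. Of 66 tested genes of replication and repair 55 fell (83.3%, against 20.5% of all tested genes) and none rose, with a median change of −1.06. Uhrf1, which passes DNA methylation on at the replication fork, was at 11.88 and 11.71 without hCG and 9.60 and 9.80 at 8 h. Mcm5, a subunit of the replicative helicase, was at 11.60 and 11.82 without hCG and 10.43 and 10.53 at 8 h. Pole, a replicative polymerase gene, was at 9.73 and 9.99 without hCG and 7.82 and 7.98 at 8 h. Their changes were −2.10 ± 0.17, −1.23 ± 0.16 and −1.96 ± 0.16, with adjusted p-values from 1.53e-05 to 2.97e-04. Brca2 was at 10.80 and 10.83 without hCG and 8.75 and 8.85 at 8 h and fell by 2.02 ± 0.15, whereas Brca1 was at 10.17 and 10.42 without hCG and 9.92 and 10.35 at 8 h and was not called (adjusted p = 0.586). Pcna, the sliding clamp gene, was at 13.24 and 13.17 without hCG and 12.78 and 12.79 at 8 h, just short of a call (adjusted p = 0.0582). The number of falls lay between 48 and 56 with any 1 array left out.

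Genes of mitosis and the kinetochore fell with them, 56 of 76 tested (73.7%), with a median change of −0.77, and 34 fell with 8 h replicate 1 omitted. Bub1b, a spindle checkpoint kinase, was at 12.97 and 12.88 without hCG and 11.27 and 11.32 at 8 h and fell by 1.63 ± 0.15. Aurka, aurora kinase A, was at 11.30 and 11.43 without hCG and 10.50 and 10.62 at 8 h and fell by 0.80 ± 0.16. Ccnb2, cyclin B2, was at 12.35 and 12.12 without hCG and 10.99 and 10.83 at 8 h and fell by 1.32 ± 0.18. The single rise was that of Zwint, a kinetochore gene named here after its values were seen, at 11.69 and 11.22 without hCG and 12.43 and 12.34 at 8 h (change 0.93 ± 0.21). Growing granulosa cells and the oocyte both express many of these genes. The oocyte markers given below fell over the same arrays, and their part in the fall of replication and mitosis genes was not tested.

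Inhibitors of cyclin-dependent kinases, which brake the cell cycle, were called in part. Cdkn1a, which encodes the inhibitor p21, was at 9.17 and 8.86 without hCG and 11.39 and 11.37 at 8 h and rose by 2.37 ± 0.17. Cdkn2d, which encodes p19, was at 7.96 and 8.18 without hCG and 10.01 and 10.06 at 8 h and rose by 1.97 ± 0.17. Ccnd2, the D-type cyclin gene of granulosa cells, was at 12.73 and 12.73 without hCG and 10.33 and 10.06 at 8 h and fell by 2.54 ± 0.16. All 7 tested probe sets of Ccnd2 fell. Cdkn1b, which encodes p27, was at 9.32 and 10.24 without hCG and 10.25 and 10.38 at 8 h and was not called (adjusted p = 0.151). Over 55 tested genes of cell cycle exit, p53 targets and growth arrest, 18 rose, 10 fell and 27 were not called.

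**Figure D4:**
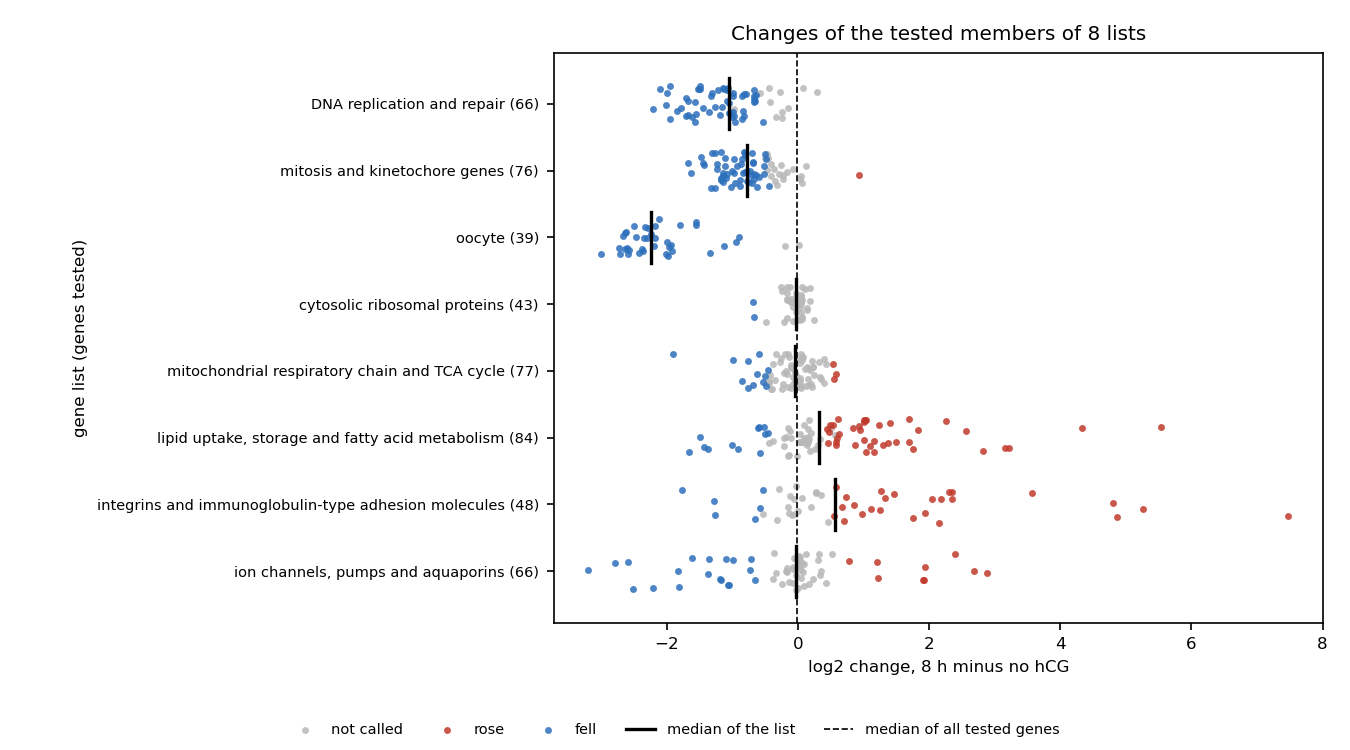
Log2 change of every tested member of 8 lists, with 1 dot per gene, red for genes that rose, blue for genes that fell, grey for uncalled genes and a bar at each list's median. Replication, mitosis and oocyte genes sit left of the dashed median of all tested genes, ribosomal and respiratory genes sit around it, and lipid and adhesion genes have long tails to the right.

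Promoters of cell cycle genes are shown because these genes fell together. Ccnb2, Espl1, which encodes separase, and Mcm8, a helicase gene of repair, were chosen after values were seen, as list members that fell and hold the motifs close to the start site. The 150 bases run from 100 before to 50 after the start site, at chr9:70421505-70421654, minus strand (Ccnb2), chr15:102296193-102296342, plus strand (Espl1) and chr2:132816041-132816190, plus strand (Mcm8). Capitals mark the cell cycle homology region (CHR, TTTGAA), the CCAAT box (CCAAT) or an E2F site (TTTNGCGC), each searched on both strands.
Ccnb2: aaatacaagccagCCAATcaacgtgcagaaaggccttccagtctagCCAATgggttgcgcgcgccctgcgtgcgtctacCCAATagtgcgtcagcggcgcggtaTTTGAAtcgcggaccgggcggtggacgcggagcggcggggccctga
Espl1: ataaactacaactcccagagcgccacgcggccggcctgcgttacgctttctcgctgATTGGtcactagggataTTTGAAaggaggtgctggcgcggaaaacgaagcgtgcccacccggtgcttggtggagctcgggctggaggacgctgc
Mcm8: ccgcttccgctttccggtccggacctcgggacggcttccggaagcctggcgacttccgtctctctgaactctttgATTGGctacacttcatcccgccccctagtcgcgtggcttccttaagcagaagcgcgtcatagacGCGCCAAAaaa
In Ccnb2 CCAAT boxes start at −87, −54 and −21 and a CHR at 5. Espl1 has a reversed CCAAT box at −44 and a CHR at −27, and Mcm8 a reversed CCAAT box at −25 and a reversed E2F site at 40. Espl1 was at 10.67 and 10.59 without hCG and 9.39 and 9.34 at 8 h and Mcm8 at 8.33 and 8.69 without hCG and 6.72 and 6.74 at 8 h, changes of −1.27 ± 0.15 and −1.78 ± 0.18. The CHR letters were in 64.4% of 59 promoters of mitosis genes, 11.8% of 8705 promoters of tested genes and 18.5% of the whole table. Within 50 bases of the start they were in 57.6% and 2.86% of the first 2 of these sets. CCAAT was in 71.2% of the mitosis promoters and in 63.0% of 46 replication promoters, against 38.7% of tested genes and 38.2% of the table. E2F letters were in 19.6% of replication promoters, 2.37% of tested genes and 1.35% of the table. Among all genes that fell at least 2-fold the CHR was within 50 bases of the start in 5.24%. These motifs are well known in cell cycle genes as a class, so their shares describe the lists and not the change at 8 h.

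Chromatin genes had equal numbers of rises and falls, 22 each of 97 tested (22.7%). Of all tested genes 16.9% rose and 20.5% fell. The rises numbered 14 with 8 h replicate 1 omitted and 9 with 8 h replicate 2 omitted. Dnmt1, the maintenance DNA methyltransferase, was at 12.46 and 12.19 without hCG and 10.55 and 10.99 at 8 h and fell by 1.56 ± 0.19. Ezh2, the methyltransferase of the polycomb complex, was at 11.80 and 12.06 without hCG and 10.81 and 10.85 at 8 h and fell by 1.10 ± 0.16. H1f8, the linker histone gene of oocytes, was at 10.42 and 9.88 without hCG and 8.10 and 7.63 at 8 h and fell by 2.28 ± 0.25. Hmgn3 rose by 2.25 ± 0.20. Of 20 circadian clock genes 6 rose and 6 fell. Per1 was at 9.21 and 8.80 without hCG and 10.44 and 10.26 at 8 h and rose by 1.35 ± 0.18, while Per3 was at 8.35 and 8.54 without hCG and 6.45 and 6.46 at 8 h and fell by 1.99 ± 0.15. Per2 was not called (change −0.23 ± 0.20, adjusted p = 0.444). Of 16 genes that are often used as references 2 rose, Tpt1 and Ywhaz, and 0 fell. Ywhaz was at 12.13 and 12.49 without hCG and 13.38 and 13.83 at 8 h and rose by 1.30 ± 0.20. Over the 16 processing alternatives the change of Tpt1 ran from 0.24 to 0.63, and its call was lost in 8 of them. Hprt was at 11.87 and 11.94 without hCG and 12.16 and 12.42 at 8 h and was not called (adjusted p = 0.0931).

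Nearly all markers of the oocyte were called downward at 8 h. Of 39 tested 37 fell and 0 rose, with a median change of −2.24. The mean level of the list was 11.30 and 11.14 on the arrays without hCG and 9.19 and 9.13 on those of 8 h. Zp1 and Zp2, of the zona pellucida, were at 11.30 and 11.02 without hCG and 8.19 and 8.11 at 8 h and at 12.39 and 12.35 without hCG and 9.73 and 9.60 at 8 h. Mos, the kinase that drives meiotic maturation, was at 11.07 and 10.95 without hCG and 8.48 and 8.25 at 8 h. Bmp15, an oocyte growth factor gene, was at 9.33 and 9.49 without hCG and 7.21 and 7.39 at 8 h. Their changes were −3.01 ± 0.18, −2.71 ± 0.15, −2.64 ± 0.16 and −2.11 ± 0.16, with adjusted p-values from 1.62e-06 to 1.13e-05. At 16 h the zona genes were at 7.49 and 7.12 (Zp1) and 7.46 and 7.53 (Zp2), below the 8 h arrays, whereas Mos was at 9.64 and 9.44 and Bmp15 at 8.74 and 8.52, between the arrays of 8 h and those without hCG. Uchl1 and Spin1 were the members that were not called. Uchl1, which neurons and other cells also express, was at 11.66 and 11.29 without hCG and 11.44 and 11.12 at 8 h. Fewer oocytes for each cumulus cell, more RNA per cumulus cell and less mRNA per oocyte cannot be told apart in these pools.

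Markers of other cells were checked on the same arrays. Of 25 tested leukocyte markers 3 rose and 2 fell, with a mean level of 6.56 and 6.68 without hCG and 6.55 and 6.71 at 8 h. The falls numbered 1 with 8 h replicate 1 or untreated replicate 2 omitted and 3 with untreated replicate 1 omitted. Ptprc, which encodes CD45 and defines leukocytes, was at 4.95 and 5.33 without hCG and 4.90 and 5.55 at 8 h. Cd68 was at 6.08 and 6.61 without hCG and 6.22 and 6.58 at 8 h and Lyz2 at 8.03 and 8.92 without hCG and 8.26 and 8.42 at 8 h. None of the 3 was called (adjusted p-values from 0.758 to 0.888), and the arrays of the groups overlapped in each. At 16 h they were at 7.64 and 7.98 (Ptprc), 8.58 and 8.21 (Cd68) and 11.52 and 11.79 (Lyz2), above all arrays compared here. Ptprc was under 5.62 on every array compared here and was tested only because its 16 h arrays raised the 6-array mean. Its lack of a call therefore says little. The 3 rises were those of Fcgr3 (1.59 ± 0.26), Cd52 (1.37 ± 0.19) and Csf1r (1.36 ± 0.19), all genes of myeloid cells or lymphocytes. Csf1r was at 6.53 and 6.95 without hCG and 8.03 and 8.16 at 8 h. The part of leukocytes in the rise of cytokine genes was not tested beyond these levels.

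Of 10 tested endothelial markers 3 rose and 1 fell. Cdh5, which encodes VE-cadherin, was at 5.09 and 5.87 without hCG and 8.15 and 8.52 at 8 h and rose by 2.86 ± 0.25. Kdr, a VEGF receptor gene, was at 7.05 and 7.07 without hCG and 7.35 and 7.32 at 8 h and was not called (adjusted p = 0.185), and Sox18 fell by 1.24 ± 0.19. Pecam1 was too dim to be tested. The part of endothelial cells in the rises of Lyve1, Cd34 and Cdh5 was not tested. For the oviduct epithelium 2 of 10 tested markers rose and 1 fell, with 2 falls with either untreated replicate omitted. Sprr2f was at 4.30 and 4.18 without hCG and 8.74 and 8.15 at 8 h and Cldn3 at 7.69 and 7.51 without hCG and 9.20 and 8.84 at 8 h, and these were the rises. Ovgp1, the oviduct glycoprotein gene, was at 7.90 and 9.58 without hCG and 7.30 and 8.46 at 8 h with overlapping arrays (adjusted p = 0.232), and Foxj1 and Pax8 were too dim to be tested. Of 9 markers of the ovarian surface 0 rose and 5 fell. Of 14 theca and stroma markers 2 rose and 5 fell, with 3 falls with 8 h replicate 1 omitted. Cyp17a1, the androgen enzyme of theca cells, was at 9.35 and 8.63 without hCG and 6.63 and 6.75 at 8 h and fell by 2.30 ± 0.23. Smooth muscle markers had 1 rise and 2 falls among 8, and none of 4 erythrocyte markers was called. The smooth muscle falls numbered 1 with either 8 h replicate omitted, and with 8 h replicate 2 omitted 0 rose. In the erythrocyte list 1 gene fell with either 16 h array or untreated replicate 2 omitted. Of 19 markers of mural granulosa and luteal cells 4 rose and 8 fell, with Akr1c18, the enzyme that inactivates progesterone, at 8.28 and 8.18 without hCG and 10.57 and 10.45 at 8 h (change 2.28 ± 0.15) and Bmpr1b at 11.57 and 11.92 without hCG and 9.56 and 9.96 at 8 h (change −1.98 ± 0.20).

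One probe set per gene does not always speak for the gene. Of the 5917 genes with several tested probe sets, 58 had one that rose and another that fell. Of the 2384 called genes with several probe sets, all were called the same way in 1101. Gse1 had a probe set at 5.65 and 5.99 without hCG and 7.44 and 7.75 at 8 h and another at 9.04 and 8.59 without hCG and 6.88 and 6.53 at 8 h. These changed by 1.78 ± 0.18 and by −2.11 ± 0.21. B4galt6, a galactosyltransferase gene of sphingolipids, had one at 6.62 and 6.54 without hCG and 9.10 and 8.82 at 8 h and another at 9.26 and 9.29 without hCG and 7.80 and 7.62 at 8 h. These changed by 2.38 ± 0.16 and by −1.57 ± 0.15. In both genes the calls of the probe sets went in opposite directions, so no direction is given for the gene. Whether different transcripts of a gene or cross-hybridisation underlie such pairs was not tested.

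**Figure D5:**
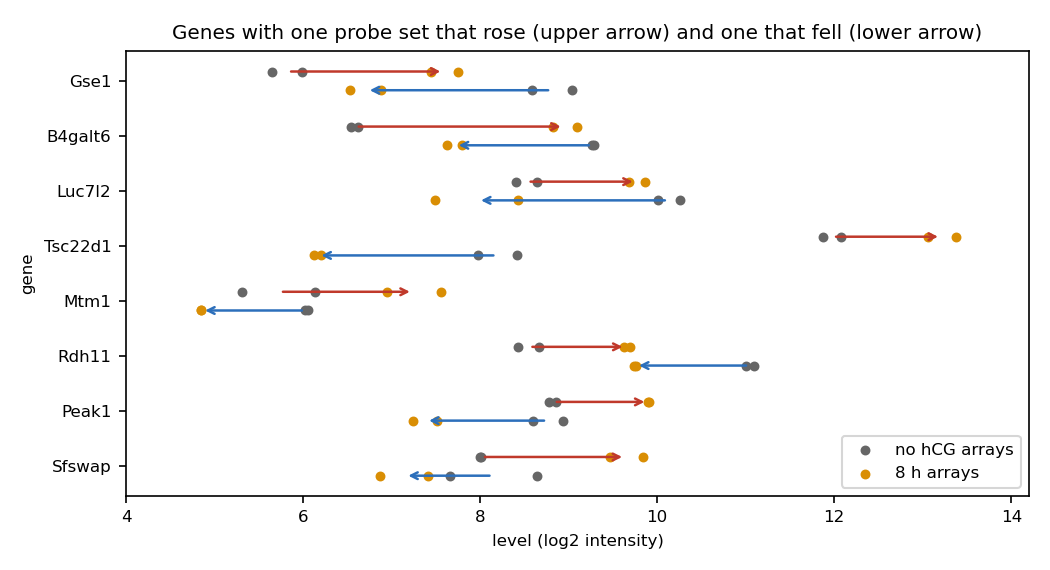
Log2 intensity of a probe set that rose (upper arrow, red) and one that fell (lower arrow, blue) in 8 genes, with arrays without hCG in grey and 8 h arrays in orange, and arrows from the mean without hCG to the 8 h mean. The arrows of each gene point in opposite directions, because the genes were chosen for that.

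The 16 h arrays were not part of the contrast, but they entered the 6-array mean by which dim probe sets were left out. Genes that were dim at 16 h were therefore less likely to be among those counted here. Genes that were bright only at 16 h could be let in. The 348 genes that rose at least 4-fold had a median level of 7.23 without hCG, 10.2 at 8 h and 9.76 at 16 h. At 16 h 120 of them had a mean above that of 8 h, 207 lay between both earlier means and 21 were at or under the mean without hCG. The 336 genes that fell as far had medians of 10.04, 7.53 and 7.66, with 167 lower at 16 h than at 8 h, 168 between and 1 back at or above the mean without hCG. Because these genes were chosen on the 8 h arrays, part of any return is built into the choice, and no test was made of it. Lyve1 was at 12.31 and 12.42 at 8 h and 6.85 and 6.07 at 16 h, and Cxcr4 at 11.20 and 11.48 and 7.49 and 7.30. Ptgs2 was at 11.69 and 11.80 and 12.62 and 12.89. Wnt4 was at 8.81 and 8.74 without hCG, 9.79 and 9.99 at 8 h and 12.32 and 12.63 at 16 h. Ihh was at 5.74 and 6.10 at 16 h, near its 8 h level, and Slfn4 at 9.48 and 9.20, between both earlier groups.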

How the data were processed

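The deposited table held log2 intensities of 45101 probe sets on 6 Affymetrix arrays. The software, normalization and summary that the authors used are not given in the sources used here, and their range showed the log2 scale. Array medians spanned 0.125, under a limit of 0.2, so the values were used as deposited. After 64 controls were left out, 34945 probe sets had 1 gene symbol in the platform's annotation, 932 had several and 9160 none, and the last 2 kinds were not named. Probe sets whose 6-array mean fell below 5.62, the 40th percentile, were not tested. A limma 3.58.1 model (R 4.3.3, functions lmFit and eBayes) took 1 mean per group from the 6 arrays together, which left 3 residual degrees of freedom beside a prior of 6.43. Tests were two-sided, with Benjamini-Hochberg adjustment over 27022 probe sets. A gene was represented by its tested probe set with the highest mean. No array was dropped or imputed, and 2 arrays per group limit the precision.

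The comparison, the 48 process lists and the 9 cell type lists were chosen with earlier results of these data known, so a list's direction is no independent evidence. Lists are described by counts and medians without a test. Of the process lists, 1 is not reported here. Genes were named by rule: the 24 highest and 24 lowest changes among bright called genes, chosen members and up to 6 called members with the largest change in each list, the brightest called genes, genes with opposite probe sets, genes that passed from dim to bright, and promoter and label-check genes. Promoters are those of RefSeq for GRCm38.p6, matched by Entrez gene identifier. The 64.2% of tested genes with exactly 1 entry were used, and 18 motifs were searched in them.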

Additional observations from a re-analysis of the deposited data

How the results depend on the processing

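Over 16 alternatives the number of genes called lay between 3498 (with 8 h replicate 2 omitted) and 5512. Of 395 called genes named by rule, 349 had the same call under all 16, counting those alternatives that gave the gene a value. A kept call did not mean a kept size. Among others, the change of Prkar1b ran from 1.11 to 3.10 and that of Ano1 from −3.35 to −1.46. Mycn ran from −2.67 to −1.06 and Gas6 from −2.66 to −1.24. Probe sets called numbered 9167, 4429 of them upward. Leaving out 1 array at a time gave 6109 to 9450 called, 2948 to 4951 upward and 3161 to 4674 downward, with both lowest counts of called and upward probe sets with 8 h replicate 2 omitted, where the lone 8 h array is assumed to vary like the other groups. Omitting either 16 h array gave the same counts as fitting the compared groups alone, 8366, since the remaining 16 h array then adds nothing to the spread. Deviations of same-numbered replicates correlated at 0.468 between the 2 groups compared, and at 0.001 and 0.135 between each of these and the 16 h group. Whether the numbers mark a shared origin is not given in the labels, so they were not taken to pair the arrays. With the replicate number as a block 10117 probe sets and 5512 genes were called. Quantile normalization gave 9484 and centring on the median 8746. Directions turned in 12 genes. Without probe sets prone to cross-hybridisation, the changes were −0.78 for Actb, −0.0036 for Lmna, 0.16 for Idh2, −0.15 for H1f2, −0.013 for Arntl, −0.66 for H2-D1, −1.37 for Tsc22d1 and 1.11 for Rdh11. With the mean of a gene's probe sets they were 0.64 for B4galt6, −0.39 for Luc7l2, −0.031 for Mtm1 and −0.10 for Peak1. Both settings read these genes from other probe sets by construction.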
